A study of Mus musculus with 4 samples.

Results

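The non-cycling crypt stem-like epithelium described here is made of 138 cells from 2 mouse intestinal single-cell libraries. A cell was a barcode with at least 500 UMIs (unique molecular identifiers, each standing for 1 captured transcript), at least 200 genes and at most 20% of its UMIs from mitochondrial genes. It had to carry at least 2 UMIs of the epithelial genes Epcam, Krt8, Krt18 and Krt19 and at least 2 of the stem cell genes Lgr5, Smoc2 and Ascl2. It also had to carry fewer than 3 UMIs of the cell cycle genes Mki67, Top2a, Cdk1, Ccnb1 and Birc5, less than 1% of its UMIs from the goblet cell genes Muc2, Fcgbp, Clca1, Zg16, Tff3 and Agr2, and none of Ptprc, Chga or Chgb. The rule was met by 21 of 16967 kept barcodes in the untreated library and by 117 of 10647 in the treated one. Over all 4 libraries of the series there were 51471 kept barcodes of 64266 deposited, and a single barcode of the brain libraries met the rule. The 21 genes of the rule chose the cells, so their levels below describe the choice.

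The series measured single-cell transcriptomes of wild-type mice in 4 libraries, 1 each from untreated intestine, intestine after 1 week of NPs treatment, untreated brain and treated brain. The labels do not spell out NPs or the number of animals, and they call the tissue intestine for the samples but colon for the series. They name BALB/c mice aged 5 weeks and ICR mice aged 6 months without saying which tissue came from which. Tissue was digested with collagenase IV, papain and DNase, and dead cells were removed. With 1 library per group no difference between the groups can be tested, and all intervals below are exact 95% intervals that cover counting error only.

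Crypts are the pockets of the intestinal lining in which the epithelium is renewed. Stem cells at the crypt base carry Lgr5, a receptor that strengthens Wnt signals, and depend on those signals. Ascl2 is the transcription factor that holds these cells in the stem state. Their daughters divide rapidly in the crypt wall and then leave the cell cycle as absorptive colonocytes or as secretory cells. Stem cells that are between divisions share most of their genes with the dividing cells around them.

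Smoc2, which codes for a secreted matrix protein, lies at chr17:14279506-14404790 on the plus strand (GRCm38, GENCODE M21), Lgr5 at chr10:115450311-115587780 on the minus strand and Ascl2 at chr7:142966829-142969264 on the minus strand. Ascl2 was the most often seen of the 3 stem markers, with 40 UMIs in 15 of the 21 untreated members and 205 UMIs in 82 of the 117 treated members. Smoc2 gave 23 UMIs in 13 untreated and 113 UMIs in 72 treated members. Lgr5 gave 13 UMIs in 8 untreated and 100 UMIs in 56 treated members. All 3 were seen together in 3 untreated and 18 treated members, and 9 and 48 members held exactly 2 stem marker UMIs, the least the rule allows. The highest stem marker sums in a cell were 10 and 20 UMIs. Just outside the rule lay 108 untreated and 218 treated cells with 1 stem marker UMI, 5 and 16 cells with exactly 3 cell cycle UMIs, and 3 and 51 cells that failed only on the goblet limit. Inside it, the highest goblet share was 0.544% of UMIs in the untreated and 0.882% in the treated members. No cell cycle UMI was seen in 5 untreated and 62 treated members, 1 in 10 and 33, and 2 in 6 and 22.

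The label was checked against genes outside the rule. Apart from the rule genes, the members' levels stood furthest above those of all other kept cells for Nox1 (an NADPH oxidase of the colonic epithelium), Clca3b, Sox4 and Rgcc in the untreated library, and for Rgcc, Clca3b, Sox4 and Adh1 in the treated one. The 8 small-intestinal enterocyte markers gave 40 UMIs in 13 of 21 untreated members and 596 UMIs in 87 of 117 treated members, 170 of them in 1 cell. Apoa1, Apoa4, Sis, Lct and Alpi had no UMI in the untreated members, and Apoa1, Apoa4, Lct and Rbp2 none in the treated ones. Most treated UMIs were of Fabp2, which is also in the absorptive list below. It gave 305 UMIs in treated members with and 232 in those without an Lgr5 UMI. The 6 fibroblast markers had no UMI in the untreated members, but 3 treated members held 384 of the 393 fibroblast UMIs found there. These 3 cells had 9 to 13 epithelial UMIs each, reached the stem marker minimum through Smoc2 alone, and had no UMI of Lgr5 or Ascl2, so the data do not bear out the label for them. In the untreated library 1 member held 139 of 150 UMIs of 6 colonic absorptive markers, and 2 treated members held 526 of 1260. B cell markers gave 3 UMIs in the untreated and 0 in the treated members, and of the 5 Paneth markers 1 and 2 were seen, with 1 and 7 UMIs. A longer list of 10 Paneth cell genes gave 8 and 208 UMIs, among them Itln1 with 0 and 80 and Pla2g2a with 7 and 90. Its 3 measured genes were higher after NPs. A measured list gene needs at least 20 UMIs in its higher group. No gene could reach that with 8 untreated UMIs in all, so this direction was set by the minimum. Plasma cell markers gave 155 and 375 UMIs (429 and 340 CPM, that is UMIs per 1000000 UMIs summed over the cells), against 7504 and 6133 CPM in epithelium without stem markers. Their part in the results was not tested. The 2 intestinal libraries shared 104 barcodes, none of them a member, and no member reached the doublet score of 0.25, which 0.660% and 0.855% of kept barcodes reached.

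Members were deep cells. Their median depth was 18749 UMIs (1873 to 29834) in the untreated and 8870 (1253 to 29367) in the treated library, against 1912 and 6019.5 in epithelial cells that met the same rule but had no stem marker UMI. Their summed depth was 361706 and 1103572 UMIs. The median mitochondrial share of members was 2.20% and 4.05%. The libraries held 1.16e+08 and 1.28e+08 UMIs, and 16.7% of untreated but 46.5% of treated barcodes were over the mitochondrial limit.

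Stem-like cells made up 0.124% of kept untreated barcodes (0.0766 to 0.189%) and 1.10% of treated ones (0.910 to 1.32%). Among epithelial barcodes the shares were 0.150% and 1.12%. Since a stem marker is found more easily in a deep barcode, every barcode was also thinned to 2000 UMIs before the rule was applied. This left 6 of 9920 untreated barcodes, 0.0605% (0.0222 to 0.132%), and 38 of 8588 treated ones, 0.442% (0.313 to 0.607%). Without a mitochondrial limit the treated share was 0.630%. Among crypt cells with stem markers, cycling ones included, 21 of 130 were non-cycling in the untreated library, 16.2% (10.3 to 23.6%), and 117 of 303 in the treated one, 38.6% (33.1 to 44.4%). This split rests on raw cell cycle UMIs and so depends on depth. Cycling cells held a median of 25497 UMIs in the untreated and 16712 in the treated library. After thinning to 2000 UMIs, 6 non-cycling cells stood beside 5 cycling ones in the untreated library, and 38 beside 14 in the treated one. The treated share was higher by each of these counts. Whether the treatment, the animals, the gut region, the dissociation or, for the unthinned split, depth set it cannot be told apart.

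Hox UMI shares differed between the libraries in the members themselves. Hox genes of groups 10 to 13 mark the posterior end of the body, and they gave 106 of 175 Hox UMIs in untreated members, 60.6% (52.9 to 67.9%), but 25 of 632 in treated members, 3.96% (2.58 to 5.78%). Cycling crypt cells gave 67.8% and 3.54%, and epithelium without stem markers 81.5% and 9.16%. Treatment, gut region and strain therefore cannot be told apart in any comparison of the libraries below.

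RNA set free from broken cells was gauged in immune barcodes, which were those with 3 or more UMIs of Cd3e, Cd3d, Cd79a, Ms4a1, C1qa and C1qb (6142 untreated, median 3065.5 UMIs, and 576 treated, median 4571). A stem marker UMI was present in 1.51% of the untreated and 4.51% of the treated ones. At least 2, the minimum of the rule, were present in 0.423% and 3.30%. The shares of kept barcodes that were members (0.124% and 1.10%) follow all steps of the rule and are not a like comparison. The epithelial and stem marker minimums alone left 206 of 16967 untreated and 484 of 10647 treated kept barcodes. Immune barcodes with at least 2 stem marker UMIs were 26 of the 93 untreated and 19 of the 26 treated ones with any. Barcodes holding mixed cells were not told apart from free RNA here, so these shares do not measure free RNA alone. The part of free RNA in the members' stem marker UMIs was not tested. At least 2 epithelial UMIs were present in 62.0% and 89.1%, so the epithelial minimum of the rule does little to separate cells here. Of the Paneth cell genes, treated members held 72.5 CPM of Itln1 and 81.6 CPM of Pla2g2a, and treated immune barcodes 1402 and 1289 CPM. Immune levels are given below beside the genes they touch.

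Stem-like cells were compared within each library with the 6552 untreated and 4754 treated epithelial cells that met the rule but had no stem marker UMI. As the cells were chosen on genes of the same program, this is a description. Clca3b, a crypt gene of the calcium-activated chloride channel regulator family, stood at 340 CPM in untreated members and 15.4 CPM in cells without stem markers, a 22.1-fold difference (18.1 to 26.8). In the treated library it stood at 576 and 29.6 CPM, 19.5-fold (17.7 to 21.4). Slc12a2, the basolateral sodium-potassium-chloride cotransporter that drives fluid secretion, stood at 423 against 20.6 CPM and at 839 against 70.4 CPM. Its immune levels were 31.3 and 188 CPM. Hopx, known as a marker of slow-cycling stem cells in the small intestine, was 8.58-fold and 9.38-fold higher in members. Gpx2, the gastrointestinal glutathione peroxidase, was 8.17-fold and 7.14-fold higher, at 2701 and 1171 CPM in members. The other leading genes were Stmn1, Cdk4, Snhg1, Hmgn1, Tceal9, Npm1, Tubb5 and Ptma, which serve microtubules, cell cycle entry, chromatin and ribosome assembly, and their ratios in both libraries lay between 4.84-fold and 11.1-fold.

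**Figure D1:**
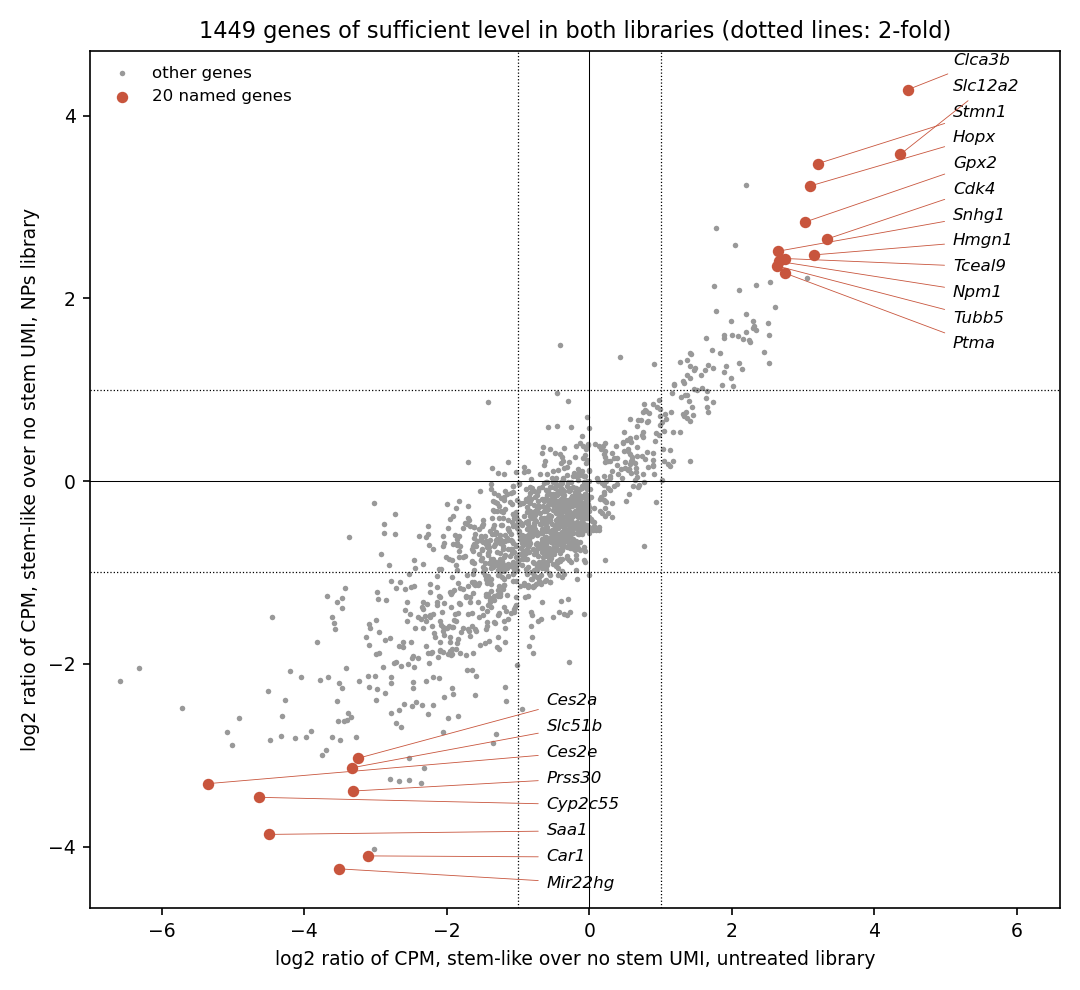
Each point is 1 of 1449 genes of sufficient level in both libraries, with its log2 ratio of summed CPM in stem-like cells over epithelium without a stem marker UMI in the untreated (x axis) and treated (y axis) library. Red points are the 20 named genes. Clca3b lies at 4.47 and 4.28, Saa1 at -4.50 and -3.87, and no gene lies past 2-fold in opposite directions.

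A gene was counted as of sufficient level where its higher class held 100 UMIs or more at 50 CPM or more, and where that level reached 0.5 of the one in the remaining kept barcodes of the library. It was counted as higher or lower past 2-fold. By this rule 175 of 1864 genes were higher in untreated members (9.39%) and 717 lower (38.5%), and 333 of 2717 were higher in treated members (12.3%) and 465 lower (17.1%). Of the 1449 genes of sufficient level in both libraries, 69 were higher in members in both, which is 67.6% of the 102 higher in the untreated and 95.8% of the 72 higher in the treated library. In both, 298 were lower, which is 56.7% of 526 and 85.4% of 349.

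Lists of genes were counted at 1.5-fold among genes with at least 20 UMIs in the higher class. The background was 18% of 6241 genes higher and 43% lower in untreated members, and 21.5% of 9719 higher and 29.3% lower in treated members. Of the stem cell signature outside the rule, 11 of 14 measured genes were higher and 1 lower in the untreated library (median log2 ratio 2.87), and 14 of 19 higher and 4 lower in the treated one (2.33). Rgcc, a regulator of cell cycle progression, was 40.0-fold and 25.4-fold higher. Axin2, the feedback inhibitor that reports Wnt activity, was 7.73-fold (4.89 to 11.7) and 11.1-fold (8.97 to 13.6) higher. Cd44, a Wnt target and hyaluronan receptor, was 17.0-fold and 11.9-fold higher, and Myc 5.73-fold and 5.54-fold. Sox9, a transcription factor of the crypt base, was 5.94-fold and 5.02-fold higher, and Lrig1, which restrains EGF receptor signalling, 14.3-fold and 7.13-fold. Aqp4 and Tcf7l2 went the other way in both libraries. Aqp4, a water channel, was at 0.362 and 0.512 of its level in cells without stem markers, and the Wnt transcription factor Tcf7l2 was at 0.321 and 0.496.

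**Figure D2:**
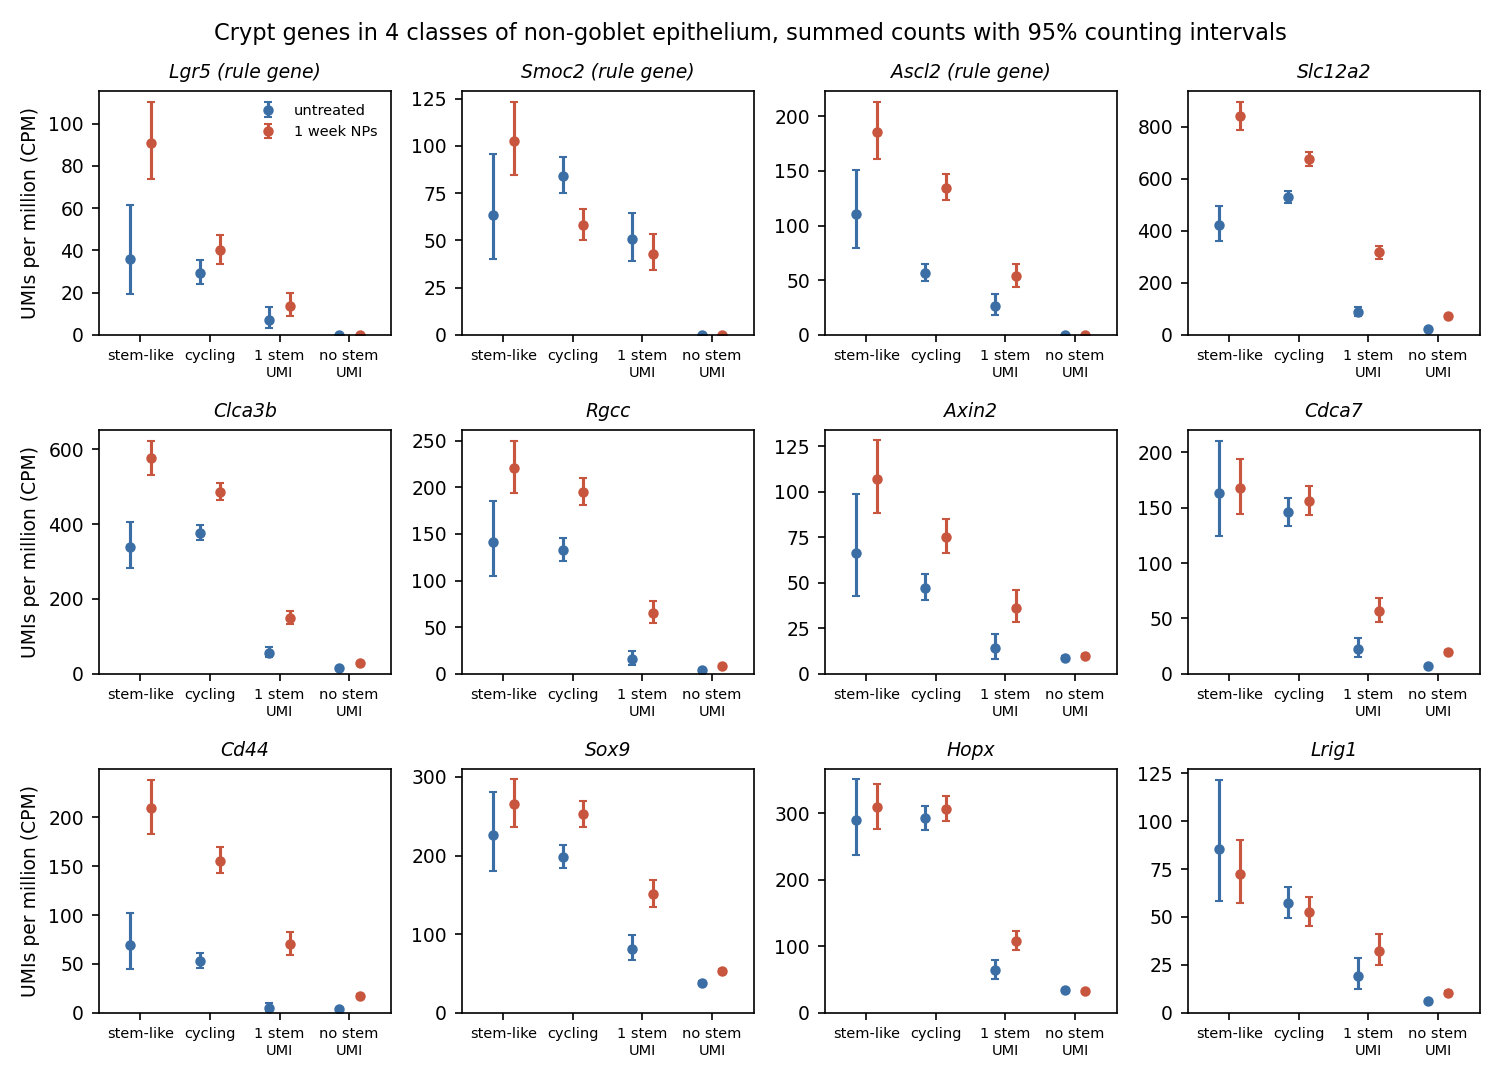
Summed CPM (y axis, linear from 0) of 12 crypt genes in 4 classes of non-goblet, non-endocrine epithelium, with exact 95% Poisson intervals, in the untreated (blue) and treated (red) library. Lgr5, Smoc2 and Ascl2 define the classes. Hopx lies at 290 and 309 CPM in stem-like and at 293 and 307 CPM in cycling cells, and Hopx and Clca3b in cells with 1 stem marker UMI lie between these and cells with none.

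Genes of mature colonocytes were the counterpart. In the untreated library 20 of 21 measured absorptive genes were lower in members and none higher (median -3.10), and in the treated library 21 of 22 were lower and none higher (median -2.20). Car1, the cytosolic carbonic anhydrase of colonocytes, stood at 169 CPM in untreated members against 1448 CPM, and at 930 against 15974 CPM in the treated library, with 2211 CPM in treated immune barcodes. Saa1, an acute-phase protein of the gut surface, stood at 102 against 2312 CPM and at 16.3 against 238 CPM. Cyp2c55, Ces2e, Ces2a, Prss30, Slc51b and the noncoding Mir22hg were the other genes furthest below. Interferon response genes were lower in 23 of 26 measured cases in the untreated and 19 of 26 in the treated library, with none higher. Glycolysis genes were lower in 14 and 13 of 15, with none higher. DNA replication genes were higher in 10 of 10 and 18 of 20, with none lower, and Notch target Hes1, which holds progenitors back from the secretory fate, was 4.46-fold and 2.94-fold higher. The cell cycle inhibitor Cdkn1a stood at 0.170 and 0.399 of its level in cells without stem markers.

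Stem-like cells differed far less from cycling crypt cells, which met the same rule with 3 or more cell cycle UMIs (109 untreated, 186 treated). In the untreated library 1 of 2107 genes was higher in stem-like cells (0.0475%) and 148 were lower (7.02%). In the treated library 5 of 2698 were higher (0.185%) and 124 lower (4.6%). The 1 gene was Fam13a, for which 1 cell held 59 of the 101 untreated UMIs, and its ratio reversed with a minimum of 3 stem marker UMIs (log2 -0.92). The 5 were Dcn and Gsn, which came mainly from the 3 fibroblast-rich cells, and Edn1, Pdgfa and Rgs17. These 6 genes are named because they were the only ones, after their values were seen. Of the 1669 genes of sufficient level in both libraries, 1 was higher in the untreated and 0 in the treated library, so none could be higher in both. In both, 80 were lower, which is 65.6% of the 122 lower in the untreated and 80% of the 100 lower in the treated library.

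The lower genes were those of division. All 22 measured mitosis genes outside the rule were lower in both libraries, with median log2 ratios of -3.28 and -3.89, where 33.3% of 7307 and 15.8% of 8782 genes were lower at 1.5-fold. Nusap1, which bundles spindle microtubules, stood at 2.76 CPM in untreated stem-like cells against 121 CPM in cycling ones, and at 2.72 against 180 CPM in the treated library. Hmmr, Kif15, Ube2c and the histone genes Hist1h2ap and Hist1h1b followed. Since the rule removed cells on genes of the same program, this direction was set by the choice. Replication genes were lower by less, with 13 of 21 and 15 of 22 lower and medians of -0.75 and -0.73. At least 1 UMI of the replication genes was present in all 21 untreated members and in 114 of 117 treated ones, and their summed level was 1404 and 1316 CPM in stem-like, 2583 and 2400 CPM in cycling and 299.6 and 323 CPM in cells without stem markers. The members therefore held fewer division transcripts than cycling cells while keeping more replication transcripts than epithelium without stem markers.

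The stem cell signature did not separate the 2 crypt classes. Its median log2 ratio of stem-like over cycling cells was 0.17 and 0.18, with 1 of 15 and 2 of 19 genes higher and none lower, where 1.26% and 5.22% of all measured genes were higher at 1.5-fold. Hopx stood at 290 against 293 CPM in the untreated and at 309 against 307 CPM in the treated library. Sox9 was 1.15-fold (0.900 to 1.44) and 1.05-fold (0.917 to 1.20). The genes furthest above cycling cells in both libraries were modest. The noncoding host genes Zfas1 and Gas5 were 1.54-fold and 1.45-fold higher in the untreated and 1.64-fold and 1.60-fold higher in the treated library, the glycolytic enzyme Aldoa 1.33-fold and 1.43-fold, and Hes1 1.30-fold (1.12 to 1.51) and 1.35-fold (1.24 to 1.47). Colonocyte genes depended on few cells. Krt20, a keratin of differentiated surface cells, was 1.88-fold and 3.37-fold above cycling cells, but without the 3 absorptive-rich members its log2 ratio was -2.48 in the untreated and -0.83 in the treated library.

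The treated library was then set against the untreated one within stem-like cells. Of 1171 genes of sufficient level, 173 were higher after NPs (14.8%) and 35 lower (2.99%). The minimum of 100 UMIs corresponds to 90.6 CPM in the treated but 276 CPM in the untreated members, so a treated gene passed at a lower level. With the same minimum of 276 CPM in both libraries, 43 of 551 genes were higher and 35 lower. The median log2 ratio of all 1171 genes was 0.23, and with this median set to 0 the counts were 109 higher and 82 lower. For lists the background was 39.1% of 5747 genes higher, 10.1% lower and a median log2 ratio of 0.37, and list medians below are best read against it. The list minimum of 20 UMIs also lets a gene pass at a lower level in the treated than in the untreated members.

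Most measured interferon response and MHC class II genes were lower in treated members. Interferons switch on antiviral genes through response elements in their promoters, and crypt stem cells are known to display MHC class II to T cells. Of 12 measured interferon response genes 9 were lower and none higher (median log2 ratio -0.88), of 8 MHC class II genes 7 lower and none higher (-0.89), and of 9 MHC class I genes 2 lower and none higher (-0.38).

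Ly6e, a surface protein that is induced by interferon, is at chr15:74955051-74959905 on the plus strand. It was seen in all 21 untreated members, at 95.7 to 1484 CPM per cell with a median of 603 CPM. In treated members it was seen in 47 of 117 cells, at 0 to 948 CPM with a median of 0. The summed levels were 691 CPM (608 to 782) and 60.7 CPM (47.1 to 77.1), 11.4-fold lower after NPs (8.66 to 15.1). The ranges over cells overlapped. The treated cell at 948 CPM was 1 of the 3 fibroblast-rich cells, and the next highest treated cell held 431 CPM. After thinning members to 2000 UMIs, 14 of 20 untreated and 16 of 114 treated cells had a Ly6e UMI. Immune barcodes stood at 556 and 318 CPM, the untreated members being 1.24 times as high as untreated immune barcodes, and the part of free RNA was not tested.

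Ly6a, the surface antigen Sca-1 and a marker of the regenerating epithelium, followed Ly6e, at 774 against 73.4 CPM. Both belong to a list of revival and injury genes, of which 6 were measured in members. Of these, 4 were lower and 2 higher after NPs (median log2 ratio -1.44). Untreated cycling crypt cells held 744 CPM of Ly6a, which was below 0.5 of its level in the remaining kept barcodes. The part of free RNA in the Ly6a level of members was not tested. Ifi27l2a, an interferon-inducible mitochondrial protein at chr12:103442167-103443680 on the minus strand, stood at 1581 CPM (90.7 to 4123 over cells, median 862) in untreated and at 217 CPM (0 to 4106, median 92.4) in treated members. It was 7.30-fold lower after NPs (6.27 to 8.53), with immune levels of 1518 and 1173 CPM. The treated cell at 4106 CPM was the same fibroblast-rich cell, and another of the 3 held 2105 CPM. Psmb9, a subunit of the immunoproteasome that cuts peptides for MHC class I, stood at 542 and 188 CPM, 2.89-fold lower (2.36 to 3.53). Isg15, the ubiquitin-like interferon response protein, had 23 UMIs in 6 untreated members, 15 of them in 1 cell, and 19 UMIs in 13 treated members, a log2 ratio of -1.88.

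B2m, the light chain of MHC class I, stood at 3030 CPM in untreated members (1532 to 4749 over cells, median 3066) and at 1266 CPM in treated ones (0 to 4735, median 1028). It was 2.39-fold lower after NPs (2.21 to 2.59). Its immune levels were 2378 and 2364 CPM. Only 2 treated members had no B2m UMI, and the ranges over cells overlapped. Cd74, the invariant chain that guides MHC class II molecules, stood at 4669.5 CPM in untreated (1440.1 to 11279, median 4880.5) and 2485 CPM in treated members (0 to 8405, median 2095), 1.88-fold lower (1.77 to 2.00), with immune levels of 5369 and 8397 CPM. The 1689 untreated Cd74 UMIs lay beside 3 UMIs of the B cell genes Cd79a, Cd79b and Ms4a1, whereas 3263 untreated B cell barcodes held 150512 Cd74 UMIs beside 59483 UMIs of those genes. The class II chains H2-Aa and H2-Eb1 were 2.02-fold and 1.96-fold lower after NPs. The lowest untreated member held 7 Cd74 UMIs, and the 21 untreated members held 130 Igkc UMIs in all. The part of free RNA in these values was not tested.

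Promoters of 3 genes described above are shown with the motifs searched in them. They run from 250 bases before to 50 bases after the start of transcription (RefSeq, GRCm38.p6), and capitals mark matches to a searched motif on either strand. Isg15 lies at chr4:156200769-156201068 on the minus strand and holds 3 overlapping matches to the core of the interferon response element, searched as GAAA, any 2 bases and GAAA, between 78 and 57 bases before the start. B2m lies at chr2:122147437-122147736 on the plus strand and holds 1 match, 139 to 130 bases before the start. H2-Eb1 lies at chr17:34305617-34305916 on the plus strand and holds 1 match to the core of the X box of MHC class II promoters, searched as AGNAAC, any base and GATG, 92 to 82 bases before the start.
Isg15: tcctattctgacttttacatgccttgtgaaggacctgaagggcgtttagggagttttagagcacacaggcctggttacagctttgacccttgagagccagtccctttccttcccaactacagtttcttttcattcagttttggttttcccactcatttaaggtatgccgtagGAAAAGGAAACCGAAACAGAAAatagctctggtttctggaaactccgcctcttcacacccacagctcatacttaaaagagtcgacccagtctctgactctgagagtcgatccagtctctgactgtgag
B2m: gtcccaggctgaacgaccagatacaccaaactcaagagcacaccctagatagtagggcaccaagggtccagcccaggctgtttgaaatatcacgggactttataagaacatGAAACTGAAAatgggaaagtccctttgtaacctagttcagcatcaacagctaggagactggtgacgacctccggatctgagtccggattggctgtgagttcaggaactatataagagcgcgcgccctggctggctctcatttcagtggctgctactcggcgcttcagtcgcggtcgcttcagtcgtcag
H2-Eb1: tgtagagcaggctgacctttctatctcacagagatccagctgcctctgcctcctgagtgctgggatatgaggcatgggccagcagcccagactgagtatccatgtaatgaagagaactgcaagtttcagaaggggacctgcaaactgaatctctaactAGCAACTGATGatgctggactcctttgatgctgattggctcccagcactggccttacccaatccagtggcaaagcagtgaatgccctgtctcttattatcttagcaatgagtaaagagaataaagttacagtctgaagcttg

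Of 32851 promoters of this length, 3.44% held the interferon motif and 0.298% the X box motif. A promoter was at hand for 20 of the 27 interferon response genes, and 12 of these held the interferon motif. Of the 6 lower ones with a promoter, Bst2, Igtp, Irgm1 and Isg15 held it, and Ifi47 and Psmb9 did not. Of 7 MHC class II genes with a promoter, H2-DMb1 and H2-Eb1 held the X box motif. A match is a string of letters and not a measured binding site.

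Cholesterol synthesis genes were lower as a group, with 9 of 10 measured genes lower, none higher and a median log2 ratio of -1.28. Fdps, which makes farnesyl diphosphate, stood at 205 CPM in untreated members (0 to 541 over cells, median 213) and at 43.5 CPM in treated ones (0 to 377, median 0), 4.70-fold lower (3.23 to 6.91). Idi1, the enzyme before it, was seen in all 21 untreated and in 29 of 117 treated members, and Msmo1 in 15 of 21 and 19 of 117. Among cells without a cell cycle UMI the median of the list was 0.72. The untreated library had 5 such cells and the treated one 62, so the minimum of 20 UMIs was reached at a lower level in the treated cells. This median therefore does not settle the direction there. Scd2, a fatty acid desaturase outside the list, stood at 970 against 191 CPM, with immune levels of 344 and 88.2 CPM. The promoter of Hmgcs1, the enzyme that opens the pathway, lies at chr13:119690101-119690400 on the plus strand and holds 1 match to TCACNCCAC, the core of the sterol response element, 137 to 129 bases before the start. That motif was in 1.24% of all promoters and in 1 of the 9 promoters at hand for the list.
Hmgcs1: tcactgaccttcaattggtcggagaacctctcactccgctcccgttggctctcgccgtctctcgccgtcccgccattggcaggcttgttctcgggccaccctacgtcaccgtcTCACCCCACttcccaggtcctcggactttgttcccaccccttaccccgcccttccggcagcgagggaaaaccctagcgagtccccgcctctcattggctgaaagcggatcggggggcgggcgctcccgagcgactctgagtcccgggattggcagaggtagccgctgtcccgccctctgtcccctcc

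Further genes were lower in treated members. Muc3, a membrane mucin, stood at 849 against 105 CPM, and 1 cell held 58 of the 116 treated UMIs. Adh1, an alcohol dehydrogenase, stood at 1432 against 506 CPM, S100a16 at 299 against 85.2 CPM, Oit1 at 1147 against 380 CPM, Anxa2 at 594 against 221 CPM and the glycolytic enzyme Pgk1 at 492 against 200.3 CPM. Gpx2 was 2.31-fold lower. Of the unfolded protein response list 6 of 13 genes were lower and 2 higher (median -0.56).

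**Figure D3:**
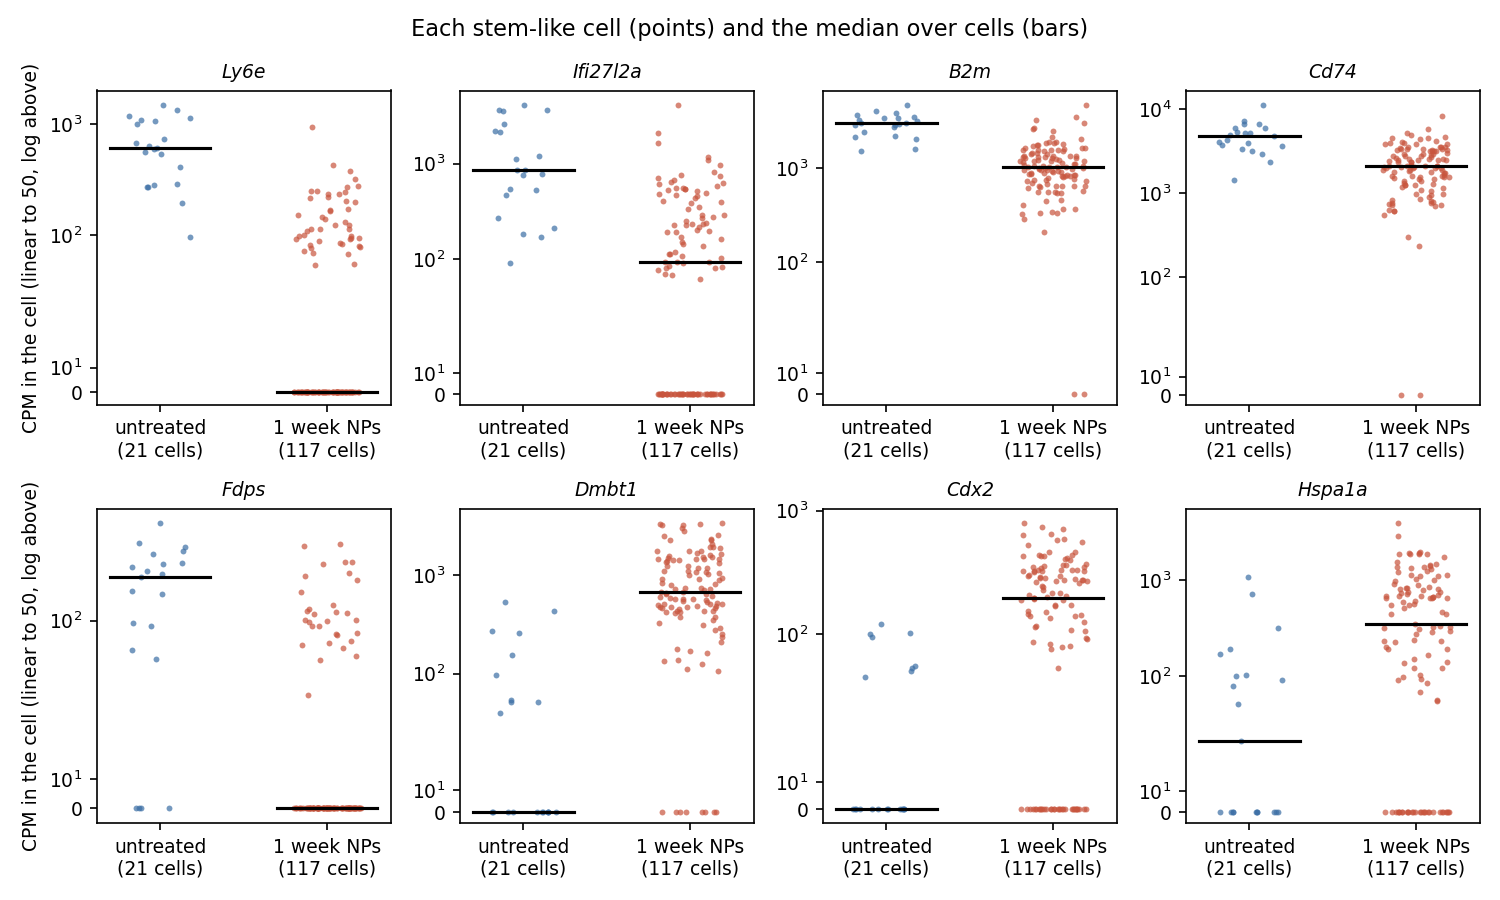
CPM of 8 genes in each of the 21 untreated and 117 treated stem-like cells (points) with the median over cells (bars), on an axis that is linear up to 50 CPM and logarithmic above. Ly6e has a median of 603 CPM in untreated and 0 in treated members, and Dmbt1 a median of 0 and 680 CPM.

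In treated members, genes of the fatty acid oxidation list were higher in 9 of 15 measured cases and lower in none (median 1.09). Among them Acaa2, a thiolase of the mitochondrion, stood at 52.5 and 188 CPM, Acot1 at 13.8 and 82.5 CPM and Pdk4, which shuts pyruvate out of oxidation, at 2.76 and 47.1 CPM.

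Dmbt1, a secreted scavenger receptor of the mucosa at chr7:131032053-131121630 on the plus strand, stood at 85.7 CPM in untreated members (0 to 534 over cells, median 0) and at 1033 CPM in treated ones (0 to 3368, median 680), 12.1-fold higher (8.44 to 17.8). Its immune levels were 107 and 533 CPM. Fgf1, a growth factor, stood at 11.1 and 90.6 CPM with 2.73 and 9.92 CPM in immune barcodes. Ces1d and Ugt2b5, enzymes of drug and steroid metabolism, had no UMI in untreated members and 103 and 101 UMIs in treated ones. For Ces1d this is 11.3-fold higher against a floor of 3 UMIs in the untreated sum, which is not a lower bound. Abcb1a, the drug efflux pump, stood at 19.4 and 196 CPM, Sgk1 at 11.1 and 139 CPM and the mitochondrial leucyl-tRNA synthetase Lars2 at 19.4 and 157 CPM. Treated immune levels of Sgk1, Lars2 and Abcb1a were 99.6, 146 and 99.6 CPM. Dcn and Gsn were among the 10 highest as well, and came mainly from the 3 fibroblast-rich cells.

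Of 9 measured regional transcription factors 2 were higher and none lower, a share below the background of 39.1%. Cdx2, a homeobox factor of the intestine, stood at 35.9 and 225 CPM (medians over cells 0 and 196), with immune levels of 11.6 and 90.7 CPM. Osr2 had 0 UMIs in untreated and 81 in treated members, at least 8.85-fold higher. Reg3b and Reg3g, antibacterial lectins, had no UMI in untreated members and 347 and 145 CPM in treated ones. Treated immune barcodes held 487 and 112 CPM of them, so for Reg3b the members lay below the immune barcodes. The same holds for Retnlb, a goblet cell product, with 231 CPM in treated members against 8492 CPM in treated immune barcodes. Of the immediate early and heat shock list 12 of 18 genes were higher and none lower (median 1.36). Hspa1a, a heat shock protein that dissociation is known to induce, stood at 96.8 CPM (0 to 1068 over cells, median 33.5) and at 520 CPM (0 to 3837, median 349), with immune levels of 198 and 635 CPM. The higher mitochondrial share of the treated library moved with this list, and its part was not tested.

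The stem cell signature itself was higher in 10 of 18 measured genes and lower in 2 after NPs (median 0.63, beside the background median of 0.37), and Wnt targets in 7 of 12 with none lower (0.65). Of all measured genes, 39.1% were higher and 10.1% lower. Cd44 stood at 69.1 CPM (44.7 to 102) and 209 CPM (183 to 238), Ephb3, a Wnt target that positions cells in the crypt, at 30.4 and 101 CPM, Cdk6 at 63.6 and 199 CPM and Slc12a2 at 423 and 839 CPM. Axin2 stood at 66.4 and 107 CPM, 1.61-fold (1.03 to 2.61). Aqp4 and Urah were the 2 lower ones. The 3 measured slow-cycling markers, Lrig1, Sox9 and Hopx, were within 1.5-fold, with a median of 0.09. Of the rule genes, Lgr5 stood at 35.9 CPM (19.1 to 61.5) and 90.6 CPM (73.7 to 110).

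**Figure D4:**
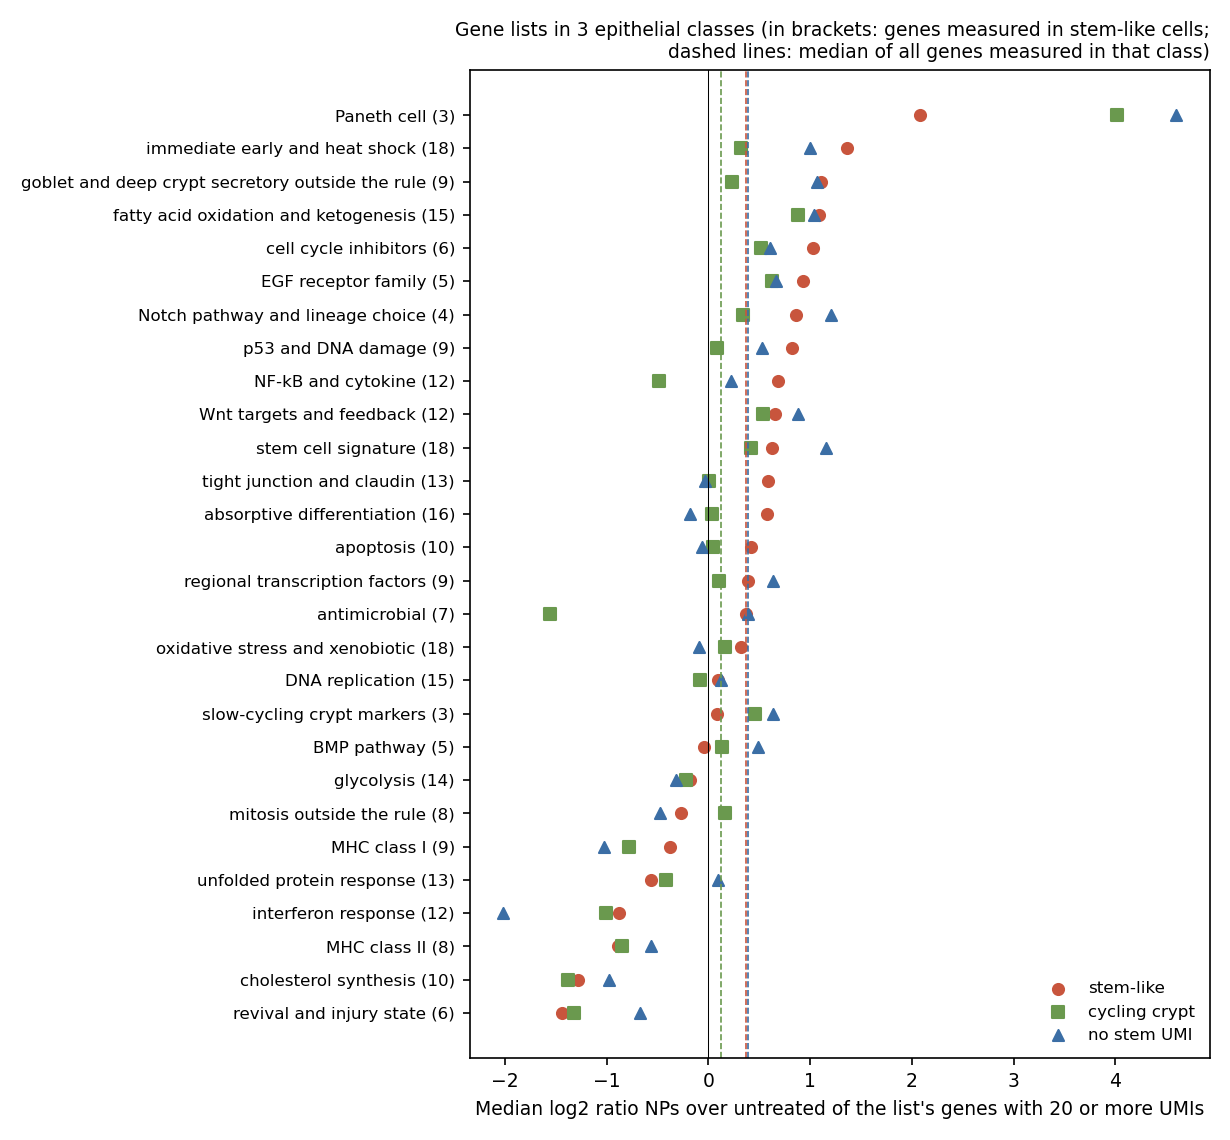
Median log2 ratio (x axis) of NPs over untreated for the measured genes of each list in stem-like cells (circles), cycling crypt cells (squares) and epithelium without stem markers (triangles), with dashed lines at the median of all measured genes of each class. The interferon response list lies at -0.88, -1.01 and -2.01, and cholesterol synthesis at -1.28, -1.37 and -0.97.

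The same genes are given side by side in the other epithelium, since these comparisons share the libraries and are not independent. Ly6e had log2 ratios of -3.51 in stem-like, -3.30 in cycling and -3.62 in cells without stem markers. Ifi27l2a had -2.87, -2.99 and -3.17, and Fdps -2.23, -2.03 and -1.87. Cd44 had 1.60, 1.56 and 2.11. The immediate early and heat shock list had medians of 1.36, 0.32 and 1.00. The stem cell signature had 0.63, 0.42 and 1.15 and the Wnt list 0.65, 0.54 and 0.89, beside medians of all measured genes of 0.37, 0.12 and 0.39. At 2-fold, 4.52% of 3341 genes were higher and 3.65% lower in cycling cells, and 11% of 3084 higher and 8.3% lower in cells without stem markers. At the 1.5-fold of the lists, 20.3% of measured genes were higher and 9.68% lower in cycling cells, and 40.1% higher and 13.3% lower in cells without stem markers. No difference between the classes was tested.

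Treated members were finally split by whether an Lgr5 UMI was seen, 56 cells with (median 8436.5 UMIs, 513473 in all) and 61 without (median 9352 UMIs, 590099 in all). Lgr5 is a gene of the rule, so this split describes how the members vary. Axin2 was 1.80-fold higher in cells with Lgr5 (1.23 to 2.66), Cd44 1.65-fold (1.26 to 2.16), Sox9 1.59-fold (1.25 to 2.02) and Rnf43, a Wnt feedback ligase, 1.60-fold (1.07 to 2.43). Tcf7l2 and Zfp703 were also higher, at 1.68-fold (1.17 to 2.44) and 1.57-fold (1.06 to 2.35). Not all genes of the stem and Wnt lists followed. Znrf3 was at 0.383-fold (0.109 to 1.11), Urah at 0.766-fold, Cdca7 at 0.784-fold, Lgr4 at 0.879-fold, Ephb2 at 0.890-fold and Lrig1 at 0.894-fold, and these intervals held 1. No background over all genes is given for this split. Clca3b and Slc12a2 were at 1.08-fold each, and both intervals held 1. Ccnd1, the cyclin of early G1 phase, was at 0.720-fold (0.568 to 0.910). Surface genes were also higher with Lgr5, Krt20 by 13.3-fold (6.73 to 29.9) and Slc26a3, the chloride-bicarbonate exchanger of colonocytes, by 13.4-fold (5.86 to 37.8). Both absorptive-rich treated members carried Lgr5, and they held most of the UMIs of these 2 genes, with 80 of 113 Krt20 and 49 of 76 Slc26a3 UMIs in the highest cell.

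**Figure D5:**
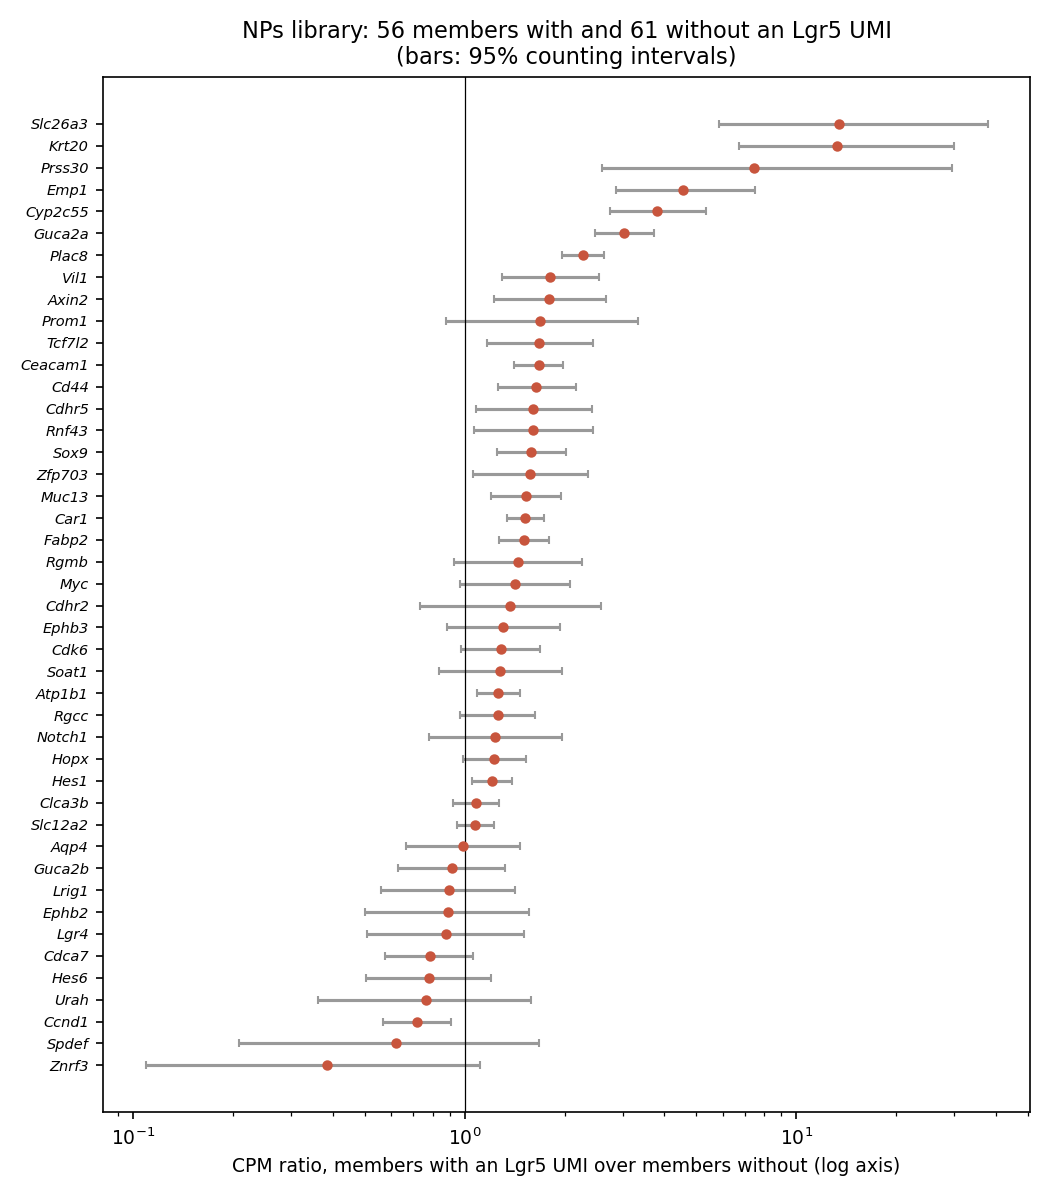
Ratio of summed CPM in treated members with an Lgr5 UMI over those without (x axis, logarithmic) for measured genes of the stem, Wnt, Notch and absorptive lists, with exact 95% intervals. Axin2, Cd44, Sox9 and Rnf43 lie between 1.59 and 1.80, Cdca7, Lgr4 and Ephb2 at 0.784, 0.879 and 0.890, and Krt20 and Slc26a3 near 13.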

How the data were processed

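The authors deposited gene by barcode count matrices, 1 per library, with whole-number UMI counts of 55450 genes. Cell Ranger 5.0.1 is named in the submitters' processing notes, and the genome build and annotation are not given in the sources used here. Gene identifiers were placed on GRCm38 with GENCODE M21. The members, the 28 gene lists and the 19 marker lists were chosen with earlier results of these data known. Counts were summed over the cells of a class in a library and divided by the summed depth to give CPM. Ratios of 2 sums carry exact conditional binomial intervals, levels exact Poisson intervals and shares exact Clopper-Pearson intervals, all at 95%. With 1 library per group no test was made, and cells were not used as replicates. Genes without a UMI in a class were given a floor of 3 UMIs in the sum. The text names the genes furthest apart in each comparison, up to 4 members of a list and the stem cell and Wnt lists. The result of 1 gene that this rule names is not reported here. Mitochondrial, ribosomal protein, haemoglobin, immunoglobulin, Gm-numbered, Rik and rule genes were left out of the ranking. Doublet scores came from Scrublet in scanpy 1.11.5, with no barcode removed by them. The steps ran in Python 3.11.15 with numpy 2.4.6, scipy 1.17.1 and pandas 2.3.3, and the ratio calculation was tested on simulated data.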

Additional observations from a re-analysis of the deposited data

How the results depend on the processing

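No paired analysis was possible because each group has 1 library. Each result was recomputed under 10 to 18 alternatives, those on marker-rich members, on a depth of 5000 UMIs, on thinning after the rule and on an equal CPM minimum being chosen after seeing the data. The interferon, MHC class I, MHC class II, fatty acid oxidation, revival and unfolded protein response medians moved by less than 1.5-fold wherever they could be computed. The treated share of stem-like cells was 1.40% with a mitochondrial limit of 10% and 0.630% without one. It was 0.855% where only members had to hold at least 5000 UMIs, which is 91 members among all 10647 kept barcodes and not a share among deep barcodes. Untreated and treated shares were 0.0605% and 0.442% after thinning every cell before the rule, 0.0707% and 0.648% with 3 stem marker UMIs, 0.0472% and 0.526% with an Lgr5 UMI, and 0.0295% and 0.582% with no cell cycle UMI. Genes higher and lower after NPs numbered 13 and 0 with thinning before the rule, 34 and 6 with thinning after it, 99 and 23 with an Lgr5 UMI, 97 and 11 with no cell cycle UMI, 109 and 82 with the median ratio set to 0, and 370 and 69 with a gene minimum of 50 UMIs. Higher genes numbered 113 with 3 stem marker UMIs and 43 at the same CPM minimum, and lower genes 55 by the mean of per-cell CPM. The cholesterol median was -1.97 with 3 stem marker UMIs, -2.63 with an Lgr5 UMI, -2.06 without absorptive-rich members and 0.72 with no cell cycle UMI. The antimicrobial median was -0.84 with 3 stem marker UMIs, 1.02 without absorptive-rich members and 1.01 with no cell cycle UMI. The replication median was -0.56 with an Lgr5 UMI, 1.08 with no cell cycle UMI and 0.78 with thinning after the rule. The absorptive median was 1.81 with no cell cycle UMI and 1.40 with thinning after the rule, where the stem cell signature reached 1.54 and the Wnt list 1.81. The immediate early and heat shock median was 0.72 with thinning before the rule and 2.01 with no cell cycle UMI. Against epithelium without stem markers, untreated and treated genes higher numbered 2 and 26 with thinning before the rule, 51 and 94 with thinning after it, 100 and 148 with an Lgr5 UMI, 80 and 172 with no cell cycle UMI, and 316 and 534 with a gene minimum of 50 UMIs. Untreated genes lower numbered 220 with thinning before the rule, and 386, with 264 higher, with the median set to 0. Against cycling cells, thinning before the rule left 0 genes higher or lower in either library, and thinning after it 0 higher and 5 lower in the untreated and 2 higher and 19 lower in the treated one. Untreated genes numbered 0 higher and 232 lower with 3 stem marker UMIs, 0 and 424 with no cell cycle UMI, 4 higher with an Lgr5 UMI and 0 higher with a goblet limit of 0.5%. Treated genes higher numbered 3 with 3 stem marker UMIs, 11 with a gene minimum of 50 UMIs and 1 at 5000 UMIs. Untreated and treated genes higher numbered 2 and 11 with the median set to 0, and 3 and 8 with no comparison with other kept cells. Of 349 called gene ratios, 13 reversed under at least 1 alternative. Against cycling cells, untreated Fam13a was -0.92 with 3 stem marker UMIs and -1.05 with an Lgr5 UMI. With no cell cycle UMI, untreated Car1, Krt20 and Slc26a3 were -0.11, -0.92 and -0.091, and without absorptive-rich members -2.09, -2.48 and -2.07, where treated Guca2a, Krt20 and Slc26a3 were -0.25, -0.83 and -0.35. Against epithelium without stem markers, thinning before the rule gave Cdx1 -0.24 and H2-DMa -0.97 in the untreated and Ier3 -2.60 and Spdef -0.36 in the treated library. Thinning after the rule gave H2-DMa -0.31 and Ier3 -0.92 in the untreated and Ier3 -0.14 and Spdef -0.42 in the treated library. Untreated Ier3 was -1.61 with no cell cycle UMI, and treated Spdef -0.76 by the mean of per-cell CPM. After NPs, Pdia4 was 0.074 with thinning after the rule. The settings that thin cells or narrow the rule leave fewer counts, and the cause of the other changes was not tested. The untreated side rests on 21 cells, and 1 library per group measures no spread between animals.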
